A study of Mus musculus with 2148 samples.

Results

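Thymic tuft-like cells were taken from a deep single-cell RNA-seq collection of mouse thymic epithelial cells chosen by the measured level of 8 marker genes: a cell was taken where its counts, scaled to the same total of reads (CPM), reached at least 20 CPM in at least 5 of the genes Pou2f3, Trpm5, Avil, Gnb3, Gng13, Plcb2, Sh2d6 and Alox5ap. The rule selected 6.62% of all cells, 7.31% of medullary cells (mTECs) and 0.926% of cortical cells (cTECs). By sort on low (mTEClo) or high (mTEChi) surface MHC class II, they were 86 adult wild-type and 23 adult Aire-deficient mTEClo cells, 16 adult wild-type and 1 adult Aire-deficient mTEChi cells, 3 newborn mTEClo cells and 2 adult cTECs. Since the 8 genes chose the cells, their levels are given below as a description and were not tested.

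All mice were C57BL/6, wild type (WT) or Aire-deficient (Aire-KO), and each cell was sorted as CD45-negative and EpCAM-positive after depletion of CD45-positive cells with magnetic beads. mTECs were Ly51-negative and were split by surface MHC class II into mTEClo and mTEChi, and cTECs were Ly51-positive. The adult WT mTEClo cells came from males of 4, 5 and 8 weeks, the adult WT mTEChi cells from males of 4, 5 and 6 weeks and females of 4 weeks, and the adult cTECs from males of 6 weeks. Both Aire-KO gates came from males of 5 weeks, and newborn WT mTEClo, mTEChi and cTECs came from pups of 1 day whose sex was not given. Cells of 1 group with the same age and sex were treated as 1 mouse pool, which gave 13 pools on 26 plates. The number of mice in a pool was not given in the sources used here, so the spread between pools is in part technical, and age differs between the WT pools. In the 8-week mTEClo pool, labelled male, 43.3% of cells held both Xist and Y-linked transcripts at 20 CPM or more, against 9.09 and 2.70% in the 4- and 5-week pools and 18.2% in Aire-KO mTEClo, so the counts that change by over 1.5 times without it are also given without it. Among its 9 tuft-like cells, 3 held both.

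Tuft cells are rare chemosensory epithelial cells of the gut and airways that sense tastants and metabolites through G-protein-coupled receptors. Their receptors act through the G protein gustducin, phospholipase C and inositol trisphosphate receptors to open the cation channel Trpm5, and the cells answer with IL-25, eicosanoids and acetylcholine. In the thymic medulla, cells with this programme are among the mimetic mTECs, which take on the gene expression of peripheral cell types. Their identity depends on the POU factor Pou2f3, which binds an octamer in DNA together with a coactivator.

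To show the DNA next to the genes described below, the promoters of 6 genes that were higher in tuft-like cells and hold the octamer ATGCAAAT, on either strand (reverse complement ATTTGCAT), are printed 5′ to 3′ along the gene's strand, 250 bases up to the start site, with the octamer in capitals. The sequences are from RefSeq on GRCm38.p6, the build of the count table. 1810046K07Rik, the gene of the Pou2f3 coactivator Pou2af2, lies downstream of chr9:51328919-51329168 (minus strand) and Rgs21, a regulator of G-protein signalling found in taste cells, of chr1:144567668-144567917 (minus strand). The promoter of Sucnr1, the succinate receptor, is chr3:60081619-60081868 (plus strand). Those of the bitter receptors Tas2r108, Tas2r137 and Tas2r118 are chr6:40493342-40493591 (plus strand), chr6:40490988-40491237 (plus strand) and chr6:23970061-23970310 (minus strand).
1810046K07Rik: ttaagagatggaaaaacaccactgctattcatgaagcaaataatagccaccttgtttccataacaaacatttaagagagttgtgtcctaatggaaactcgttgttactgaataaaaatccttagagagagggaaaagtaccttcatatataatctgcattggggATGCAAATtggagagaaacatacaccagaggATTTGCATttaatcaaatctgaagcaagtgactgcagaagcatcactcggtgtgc
Rgs21: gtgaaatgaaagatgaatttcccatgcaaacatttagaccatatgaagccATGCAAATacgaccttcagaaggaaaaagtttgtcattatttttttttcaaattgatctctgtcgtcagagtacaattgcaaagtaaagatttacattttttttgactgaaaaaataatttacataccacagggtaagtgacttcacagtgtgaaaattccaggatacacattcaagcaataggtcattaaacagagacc
Sucnr1: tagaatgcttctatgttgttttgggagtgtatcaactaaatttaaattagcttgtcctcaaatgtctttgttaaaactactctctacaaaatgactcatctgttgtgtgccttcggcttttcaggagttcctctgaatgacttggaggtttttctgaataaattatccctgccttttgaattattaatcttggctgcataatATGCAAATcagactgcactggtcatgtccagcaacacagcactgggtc
Tas2r108: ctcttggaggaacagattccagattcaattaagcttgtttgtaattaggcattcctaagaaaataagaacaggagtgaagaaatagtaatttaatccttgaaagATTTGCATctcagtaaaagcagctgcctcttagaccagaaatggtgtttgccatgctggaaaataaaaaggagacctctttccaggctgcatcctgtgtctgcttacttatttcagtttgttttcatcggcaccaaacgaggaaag
Tas2r137: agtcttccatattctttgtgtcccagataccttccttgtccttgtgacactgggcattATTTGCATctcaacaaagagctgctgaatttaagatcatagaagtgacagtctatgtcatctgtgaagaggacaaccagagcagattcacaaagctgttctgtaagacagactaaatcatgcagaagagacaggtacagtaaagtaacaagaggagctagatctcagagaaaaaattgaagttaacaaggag
Tas2r118: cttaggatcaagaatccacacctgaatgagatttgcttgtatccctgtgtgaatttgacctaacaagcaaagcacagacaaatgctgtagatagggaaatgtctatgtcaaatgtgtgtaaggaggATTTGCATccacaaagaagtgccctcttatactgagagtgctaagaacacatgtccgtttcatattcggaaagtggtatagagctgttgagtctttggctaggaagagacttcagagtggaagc

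The octamers began 86 and 55 bases before the start of 1810046K07Rik, 200 before that of Rgs21 and 48 before that of Sucnr1. In windows of 300 bases, 250 before to 50 after the start, it was present in 1.74% of 32851 RefSeq promoters and in 1.46% of 18951 promoters of the genes tested. Among promoters of genes higher in tuft-like cells it was present in 45 (3.47%), or 39 (3.08%) without bitter receptors, and among those of genes lower in tuft-like cells in 20 (1.03%). Of 31 bitter receptor promoters, 7 (22.6%) held it; these genes are paralogs and share sequence. None of the 6 promoters of the 5 rule genes found in the table held it. These are letter matches in a short window, described without a test.

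The rule separated cells with many of the 8 genes from cells with few. Among adult WT mTEClo cells, 54.6% reached 20 CPM in none of the genes and 17.6% in 1, while 16.5%, 59 cells, reached it in all 8; only 1 cell stood at 4 genes and 2 at 5. In the tuft-like cells the median level was 593.8 CPM for Pou2f3 (309.01 to 870.6 from the 10th to the 90th percentile), 2800 CPM for the channel Trpm5, 1891.2 CPM for the actin-binding protein Avil and 1498.4 CPM for the phospholipase Plcb2. The median was 946.4 CPM for the adaptor Sh2d6, 496.9 CPM for the G-protein subunit Gnb3, 274.3 CPM for Alox5ap, which hands arachidonate to 5-lipoxygenase, and 55.04 CPM for the G-protein subunit Gng13. Each of the 8 had a median of 0 in the other cells.

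**Figure D1:**
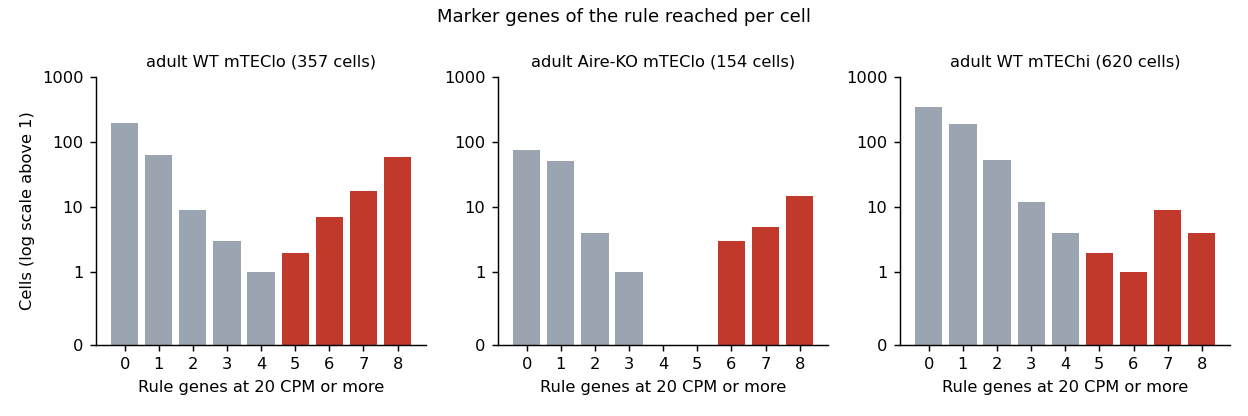
Number of cells (log scale above 1) by how many of the 8 rule genes reached 20 CPM, in 3 adult groups; red bars are cells called tuft-like. In WT mTEClo 54.6% of cells are at 0 genes, 1 cell is at 4 genes and 59 cells are at 8 genes.

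The 5 cells just inside the threshold, with 5 genes, were 1 Aire-KO mTEChi cell, 1 cell each of the 4- and 6-week WT mTEChi pools and 2 of the 5-week WT mTEClo pool. In the last 2 cells none of the 8 genes was above 93.4 CPM. In the Aire-KO mTEChi cell, the only tuft-like cell of its group, none was above 98.07 CPM, and Sh2d6 and Alox5ap were at 0. Of the 7 cells just outside, with 4 genes, 2 were in the 4-week and 2 in the 6-week WT mTEChi pool, 1 in the 5-week WT mTEClo pool and 2 among newborn mTEChi. Asking for 4 or 6 genes gave 6.97 or 6.36% of all cells, and asking for 10 or 50 CPM gave 7.17 or 6.26%, against 6.62%.

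Tuft-like cells were found mainly in mTEClo and made up very different shares of the pools. In adult WT mTEClo they were 36 of 66 cells at 4 weeks (54.5%, exact binomial 95% interval 41.8 to 66.9%), 41 of 74 at 5 weeks (55.4%, 43.4 to 66.98%) and 9 cells at 8 weeks (4.15%, 1.91 to 7.73%). The 3 plates of the 8-week pool held 2.60, 4.41 and 5.56%, so the difference from the younger pools was present on each plate; age and plate cannot be told apart here. In Aire-KO mTEClo they were 23 cells (14.9%, 9.71 to 21.6%), 12.3 and 17.3% on its 2 plates, which lies between the WT pools. Intervals cover counting error only.

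Adult WT mTEChi held 13 cells in 4-week males (2.93%, 1.57 to 4.95%) and 3 of 82 at 6 weeks (3.66%, 0.761 to 10.3%). None was found among 82 cells of 4-week females, or among 12 cells at 5 weeks. Taking 3 cells of the total as the limit that a count of 0 allows, these shares could be up to 3.66 and 25.0%, and the exact upper bounds were 4.40 and 26.5%. Aire-KO mTEChi held 1 cell (0.296%, 0.00749 to 1.64%). Newborn mTEClo held 3 cells (2.42%, 0.502 to 6.91%), newborn mTEChi 0 cells (up to 1.75% by the same limit, exact upper bound 2.13%), newborn cTECs 0 cells (up to 2.16%, exact upper bound 2.62%) and adult cTECs 2 of 77 (2.60%, 0.316 to 9.07%).

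Over pools, the share was 38.0% ± 29.3 (SD, n = 3) in adult WT mTEClo and 1.65% ± 1.92 (SD, n = 4) in adult WT mTEChi. A 2-sided exact permutation test over pools gave p = 0.0571, the smallest value that 3 against 4 pools allow, so this design cannot pass 0.05. All 3 mTEClo pools were above all 4 mTEChi pools, although the 8-week pool exceeded the 6-week mTEChi pool by less than either interval. For the single Aire-KO pool against the 3 WT mTEClo pools no p below 0.25 is possible, and no test is given.

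**Figure D2:**
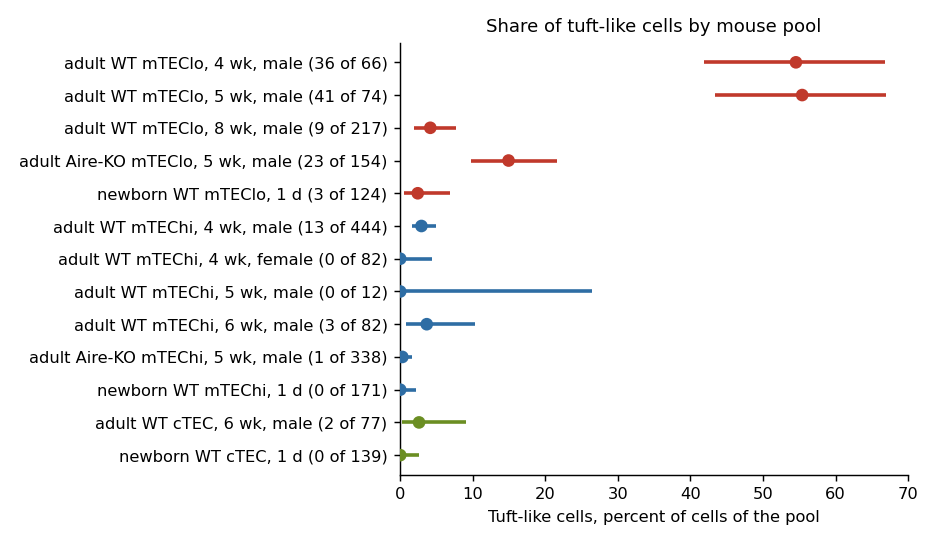
Percent of cells that were tuft-like in each of the 13 mouse pools (points) with exact binomial 95% intervals (lines); red is mTEClo, blue mTEChi and green cTEC. The 4- and 5-week WT mTEClo pools lie near 55%, the Aire-KO mTEClo pool at 14.9% and all other pools below 5%.

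Tuft-like cells had a median of 649865 assigned reads (219218 to 1823784). After thinning every cell to 200000 reads, the median number of genes detected in the 4-, 5- and 8-week WT mTEClo pools was 9700, 9782 and 11499 in tuft-like cells, against 10182, 10367 and 10808 in the other cells. In the Aire-KO mTEClo pool it was 10624 against 10418, and in 4-week male mTEChi 11078 against 11145. The class that detected more genes therefore differed from pool to pool.

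To ask what else these cells expressed, reads were summed over tuft-like and over other cells in each of the 5 pools with at least 5 of each: WT mTEClo at 4, 5 and 8 weeks, Aire-KO mTEClo and 4-week male WT mTEChi, with 36, 41, 9, 23 and 13 tuft-like cells. Levels below are CPM of these sums, in that order of pools. The 2 classes were compared within pools by edgeR's quasi-likelihood test with Benjamini-Hochberg adjustment, and a gene was called at an adjusted p under 0.05 and at least a 2-fold change. Of 27064 genes tested, 6.33% were higher and 2280 (8.42%) lower in tuft-like cells. At an unadjusted p below 0.05 these shares were 14.2 and 20.6%. Taken over every gene tested, the log2 fold change had a median of -0.21. The lowest tuft-like pool was above the highest pool of other cells in 6.1% of genes, and the highest was below the lowest in 10.2%. Without the 8-week pool 4.29% were higher and 4.57% lower, without the 5-week WT pool 3.96 and 3.75%, without the 4-week WT pool 4.27 and 4.43% and without the Aire-KO pool 3.99 and 4.37%. Gene lists were chosen with earlier results of these data known, and the rule genes were left out of every count.

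Bitter taste receptors (Tas2r genes) stood out among the genes higher in tuft-like cells. The Tas2r genes counted here include the pseudogenes Tas2r111-ps2, Tas2r141-ps4, Tas2r142-ps5, Tas2r145-ps3 and Tas2r146-ps1. Of 40 in the table, 39 were tested and 37 were higher, none lower, against 6.33% of all genes higher. The sum of the 40 genes in other cells was 1.14 to 7.70 CPM over the pools. They could thus pass the filter on low counts mainly through tuft-like cells, and a lower call was hardly possible. Without that filter 36 of 40 were higher, against 3.10% of all genes. The median log2 fold change of the list was 9.82. In 26 of the 39 every tuft-like pool was above every pool of other cells, as in 6.1% of all genes. The 12 genes that the naming rule gave were all bitter receptors, namely Tas2r110, Tas2r116, Tas2r102, Tas2r113, Tas2r106, Tas2r104, Tas2r123, Tas2r105, Tas2r109, Tas2r120, Tas2r129 and Tas2r118. The exceptions were Tas2r139, which did not pass the filter on low counts, and Tas2r135 and the pseudogene Tas2r111-ps2, with adjusted p of 0.0978 and 0.0696 (edgeR).

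Tas2r108, whose promoter is printed above, had 153.2, 128.3, 65.2, 156.6 and 69.6 CPM in tuft-like cells and at most 1.29 CPM in other cells of the same pools (log2 fold change 7.74 ± 0.64 SE, adjusted p = 0.0013). The 8-week WT and the mTEChi pool were the lowest of the 5, and no tuft-like pool overlapped with the other cells. Tas2r137 had 133.1, 113.9, 60.2, 138.04 and 48.6 CPM against at most 1.59 (7.60 ± 0.84, adjusted p = 0.00321).

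Tas2r116 had 54.6, 63.1, 59.7, 81.6 and 5.90 CPM against at most 0.132 CPM in other cells (10.60 ± 0.84, adjusted p = 0.00121). Its 4 mTEClo pools were within a narrow range, and mTEChi was lowest. Tas2r118 had 111.1, 85.8, 30.8, 161.1 and 17.2 CPM against at most 0.209 (9.82 ± 0.41, adjusted p = 4.53e-04). With other cells this close to 0, the fitted fold of these receptors depends on the prior count of the fit, and the levels are the firmer description.

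The bitter receptor genes sit in clusters, and reads of neighbouring genes moved with them. The largest cluster spans chr6:131629823-133096015, with 29 Tas2r genes, of which 28 were higher. Of 23 genes of other names in that interval, 10 passed the filter on low counts. All 10 were also higher, against 6.33% of all genes, among them the proline-rich protein gene Prp2, A630073D07Rik and predicted genes. Neighbours near 0 in other cells could pass that filter mainly through tuft-like cells, as for the receptors, so a higher call was favoured in advance. At chr6:40491233-40613310 all 3 Tas2r genes (Tas2r108, Tas2r137 and Tas2r138) and 5 of 5 other genes were higher, namely Clec5a, Olfr460, Olfr461, Prss37 and Gm43295. At chr6:42140936-42435464, 3 of 5 Tas2r genes were higher and 0 of 10 tested neighbours.

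Counting did not use strand, so reads of overlapping or antisense genes cannot be told apart, and reads of near-identical paralogs may be split between them. Outside the clusters Tas2r118 on chromosome 6, Tas2r119 on chromosome 15 and Tas2r134 on chromosome 2 were also higher. Tas2r119 had 19.6, 9.59, 10.2 and 41.4 CPM in the mTEClo pools and 0 in mTEChi, against at most 0.0184 in other cells.

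A single tuft-like mTEC carried reads of many bitter receptors. At least 1 read was found for a median of 11 of the 40 genes, pseudogenes included (0 to 37). Of these cells 97.7% had at least 1 receptor and 80 cells (62.02%) had 10 or more. In the other mTECs the median was 0, 32.2% had at least 1 and 0.184% had 10 or more. The receptor with most reads took a median of 29.4% of a cell's Tas2r reads, so reads were spread over several genes. Thinned to 200000 reads per cell, the median in tuft-like cells was 9, and 45.7% of them had 10 or more. In the 5-week WT mTEClo pool thinning took the share with 10 or more from 78.05 to 43.9%. Asking for at least 2 or 5 reads gave a median of 9 or 7.

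Receptors differed widely in how many cells had them. Tas2r108 was detected in 89.9% of tuft-like mTECs, Tas2r137 in 85.3% and Tas2r138 in 78.3%, against 12.6, 12.5 and 2.45% of other mTECs. Tas2r115 was detected in 65.9%, Tas2r116 in 50.4% and Tas2r118 in 39.5%, against 2.69, 0.734 and 1.59%. At the low end were Tas2r114 with 8.53% and Tas2r139 with 0.775%, the latter no more than the 0.917% of other cells. Among the other cells of the 5-week WT mTEClo plate, 87.9% had at least 1 receptor, a median of 5, but the median was 0 at 2 reads and the summed level 5.98 CPM; the part of stray reads on that plate was not tested.

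Pools differed in the number of receptors per cell. The median was 9, 11 and 11 in WT mTEClo at 4, 5 and 8 weeks, 22 (6 to 37) in Aire-KO mTEClo and 3 (0 to 15) in 4-week mTEChi. Thinning to 200000 reads kept this order, with medians of 7.5, 9, 9, 22 and 2. The 2 Aire-KO plates had medians of 20 and 24, both above the medians of the 3 adult WT mTEClo pools, but the ranges of single cells overlapped broadly. The 3 newborn WT mTEClo cells, with 24 to 28 receptors and a median of 24 (23 after thinning), were as high as the Aire-KO pool, so a high number was not found in Aire-KO alone. With 1 Aire-KO pool, genotype and pool cannot be told apart.

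**Figure D3:**
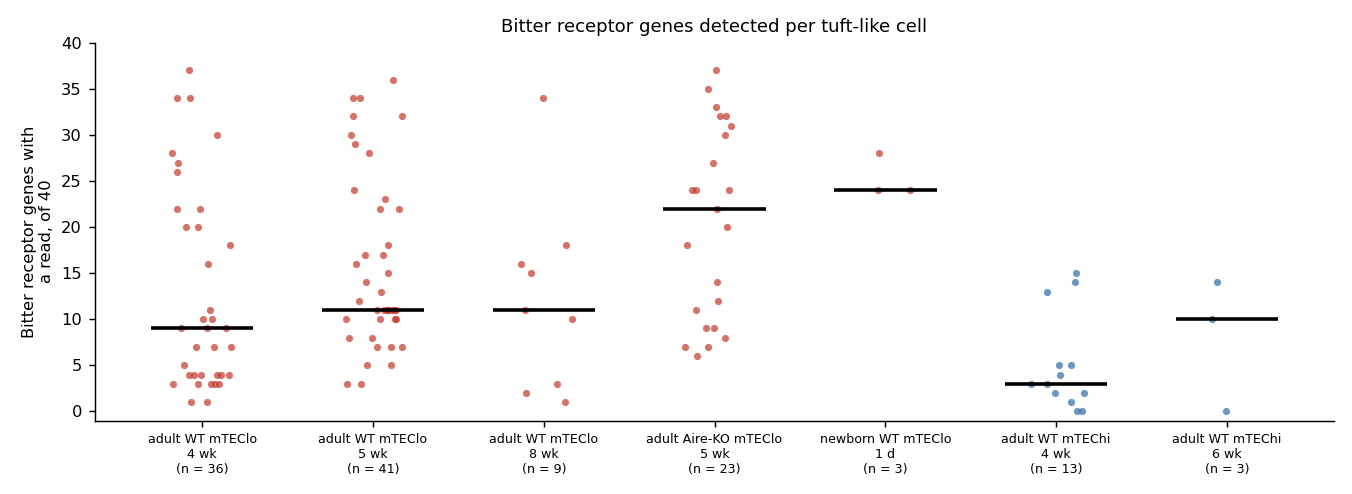
Number of bitter receptor genes, of 40, with at least 1 read in each tuft-like mTEC (points) by mouse pool, with the pool's median (black line); red is mTEClo and blue mTEChi. The median is 22 in Aire-KO mTEClo, 24 in the 3 newborn WT cells, 9 to 11 in the adult WT mTEClo pools and 3 in 4-week mTEChi, and single cells of these adult pools overlap.

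Parts of the signalling chain downstream of the receptors were also higher. Of 30 taste transduction genes outside the rule, 28 were tested, 9 were higher and 2 lower (1 without any 1 mTEClo pool), against 6.33 and 8.42% of all genes, with a median log2 fold change of 1.496. Gnat3, the alpha subunit gustducin (ENSMUSG00000028777, chr5:17962549-18019834), had 443.998, 494.5, 593.7, 683.6 and 87.9 CPM against 0.269 to 3.69 CPM in other cells (8.87 ± 0.54, adjusted p = 7.3e-04). The mTEChi pool was lowest and Aire-KO highest, and each tuft-like pool was above all other cells.

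Rgs21 (ENSMUSG00000098509, chr1:144516648-144567667) had 132.9, 256.7, 82.95, 514.002 and 38.96 CPM against at most 0.767 (9.29 ± 1.07, adjusted p = 0.00348). Aire-KO was again highest, but the WT mTEClo pools alone spanned a more than 3-fold range. Rgs13 (8.54 log2) and Rgs2 (4.52), which also limit G-protein signalling, and the calcium release channel Itpr2 (2.73) were higher, while Itpr1 (-1.77) and Entpd2 (-1.60), an enzyme that degrades ATP, were lower. The inositol trisphosphate receptor gene Itpr3 was not called, with a median of 174.1 CPM per tuft-like mTEC against 168.4 in other mTECs.

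Sweet and umami receptors share the subunit Tas1r3. It had 565.98, 299.2, 170, 304.2 and 530 CPM against 8.32 to 21.7 (4.72 ± 0.23, adjusted p = 5.29e-04), with no overlap, and its umami partner Tas1r1 had 69.1, 41.4, 27.4, 75.6 and 56.5 CPM against 0.964 to 6.24 (4.83 ± 0.43, adjusted p = 0.00172). The sweet partner Tas1r2 and Otop1, the sour proton channel, were close to 0 and did not pass the filter. Calhm3 (8.10) and Calhm1 (6.29), subunits of the channel that releases ATP from taste cells, were higher.

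Among transcription factors, 12 of 16 tested were higher and none lower, against 6.33 and 8.42% of all genes, with a median log2 fold change of 2.40. The coactivator gene 1810046K07Rik (ENSMUSG00000036027, chr9:51289686-51328917) had 422.3, 395.1, 301.3, 374.8 and 403.1 CPM against 0.351 to 4.87 (7.79 ± 0.64, adjusted p = 0.0013), and Colca2, the gene of the related Pou2af3, had 118.6, 80.2, 79.03, 162.9 and 113.1 CPM against 12.3 to 26.8 (2.58 ± 0.15, adjusted p = 6.38e-04). Levels of 1810046K07Rik were nearly even over the 5 pools, including mTEChi. The zinc finger factor Gfi1b had 92.5, 89.2, 59.99, 44.05 and 34.5 CPM against 0.395 to 7.12 (5.02 ± 0.74, adjusted p = 0.00764).

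Also higher were the homeobox genes Hmx3 (8.24) and Hmx2 (6.90), the forkhead gene Foxe1 (6.54), Ascl2 (5.64), Nfatc1 (3.00), Myb (2.22), Sox9 (2.04), Spib (1.74) and Runx1 (1.55). Atoh1, which directs secretory cells of the gut, was at 0 in every tuft-like pool. Sox4, Etv1 and Nfatc2 were not called, with log2 fold changes of -0.13, 1.03 and 0.80. The count of 12 depended on the pools in the fit: it was 6 without the 5-week WT pool, 8 without the 8-week WT or the Aire-KO pool, 9 without the 4-week WT pool and 12 without mTEChi.

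A set of genes best known from leukocytes was higher as well. Of 33 immune-type signalling genes tested, 22 were higher and none lower, against 6.33 and 8.42% of all genes. Their median log2 fold change was 3.90. In 20 every tuft-like pool was above every pool of other cells and in 1 below, against 6.1 and 10.2% of all genes. Vav1, a guanine nucleotide exchange factor, had 874.2, 792.4, 568.9, 591.7 and 396.2 CPM against 0.487 to 9.47 (7.99 ± 0.73, adjusted p = 0.0019). The tyrosine kinase Bmx had 675.5, 717.6, 787.7, 656.6 and 306.2 CPM against 0.219 to 4.04 (8.64 ± 0.86, adjusted p = 0.00231). For both, mTEChi was the lowest tuft-like pool and still far above the other cells.

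The adaptor Sh2d7 (8.73), the lipid phosphatase Inpp5d (5.94), the phosphatase Ptpn6 (3.76), the phospholipase Plcg2 (4.31), Cd300lf (7.69), which recognises phospholipids, and Ly6g6f (8.28) were called higher too. Ptprc, which encodes the CD45 used to exclude cells in the sort, had 82.7, 132.7, 196.2, 101.1 and 6.53 CPM against 0.453 to 18.1 and was not called (5.01 ± 1.64, adjusted p = 0.0813). Markers of leukocytes other than these genes are given further on, and their part in the counts of immune-type genes was not tested.

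The cytokine Il25, the signal by which gut tuft cells call type 2 responses, had 52.3, 93.4, 26.9, 31.1 and 12.2 CPM against 0.101 to 0.975 (6.84 ± 0.73, adjusted p = 0.00284). It was detected in 87.6% of tuft-like mTECs and 4.59% of others. Its receptor subunit Il17rb (4.88), Il10 (5.76) and Il4ra (1.09) were higher. Tslp and Il33, other epithelial cytokines, were not called, with 2.00 to 11.98 and 0.0320 to 1.96 CPM in tuft-like cells.

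Lipid mediator and acetylcholine genes moved in both directions. Of 19 tested, 7 were higher and 5 lower, against 6.33 and 8.42% of all genes, with a median log2 fold change of 0.38; 2 were lower without the 5-week WT pool and 3 without any other mTEClo pool. Alox5, the 5-lipoxygenase that opens leukotriene synthesis, had 1163.01, 897.2, 1210.3, 967.3 and 741.8 CPM against 18.9 to 59.4 (5.16 ± 0.34, adjusted p = 8.62e-04), with little difference between pools. Ltc4s (4.43), which makes leukotriene C4, the cyclooxygenase Ptgs1 (7.12) and Hpgds (3.95), which makes prostaglandin D2, were also higher.

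Chat, which makes acetylcholine, had 504.6, 447.02, 311.2, 347.3 and 75.5 CPM against 0.237 to 8.09 (8.89 ± 1.44, adjusted p = 0.0102), mTEChi again lowest. The genes of the vesicular transporter Slc18a3 (5.16, adjusted p = 0.194) and of the choline transporter Slc5a7 (not tested, at most 0.0414 CPM) were not called. Alox15 (-4.55), Alox12 (-2.31), Ache (-2.22), the esterase that degrades acetylcholine, Ddc (-4.79) and Ptges (-1.02) were lower.

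The brush border and cytoskeleton list had 8 of 22 higher and 2 lower, against 6.33 and 8.42% of all genes and with 1 lower when any 1 of the WT mTEClo pools was left out, with a median log2 fold change of 0.75. The microtubule-associated kinase Dclk1, a widely used tuft cell marker, had 2845, 2893, 3601, 1770.4 and 565.8 CPM against 55.2 to 198.6 (4.58 ± 0.36, adjusted p = 0.00117). The 3 WT mTEClo pools were close to each other and mTEChi was lowest. Fyb (5.51), the microvillus protocadherins Cdhr2 (4.74) and Cdhr5 (2.73) and the actin bundler Espn (3.63) were higher. Villin (Vil1, 1.39, adjusted p = 0.0936) was not called, and Krt8 (0.99) and Krt18 (0.86) passed the adjusted p but not 2-fold.

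Among metabolite and other receptors 6 of 19 were higher and 4 lower, against 6.33 and 8.42% of all genes. Without the 4-week WT or the Aire-KO pool 3 were higher and 2 lower, and without the 5-week WT pool 4 and 1. Sucnr1 had 16.6, 15.7, 27.6, 10.8 and 50.96 CPM against 0 to 1.37 (7.41 ± 0.93, adjusted p = 0.00454), here with mTEChi highest. P2ry2 (5.04), Adora1 (2.55) and Nrcam (4.36) were higher, and the free fatty acid receptor Ffar4 (-7.40) was lower.

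**Figure D4:**
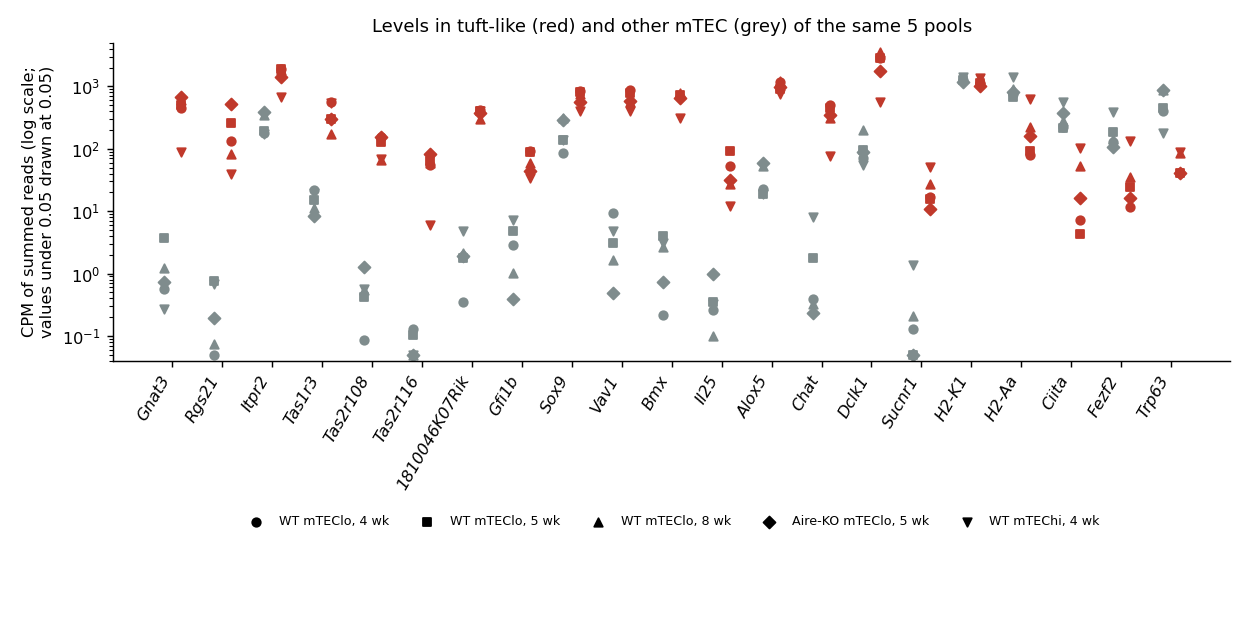
CPM of summed reads (log scale) of 21 genes outside the rule in tuft-like (red) and other mTECs (grey) of the same 5 pools, 1 symbol per pool; values under 0.05 are drawn at 0.05. Taste, immune-type and effector genes are separated by class, H2-K1 overlaps, and H2-Aa, Ciita, Fezf2 and Trp63 are lower in tuft-like cells.

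Genes that present antigen on MHC class II were lower. Of 22 antigen presentation genes, 12 were lower and none higher, against 8.42% of all genes lower, with a median log2 fold change of -1.33. H2-Aa had 77.96, 90.8, 223.5, 160 and 617.3 CPM against 678.6 to 1419.1 (-2.21 ± 0.28, adjusted p = 0.00486), with the mTEChi pool highest but still below every pool of other cells. Ciita, the class II transactivator, had 7.21, 4.28, 52.4, 16.3 and 104.4 CPM against 212.3 to 569.1 (-3.86 ± 0.57, adjusted p = 0.0077).

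Class II surface level set the gate, and each pool compares cells of the same gate. Cd74 (-2.21), H2-Ab1 (-2.31), H2-Eb1 (-1.98), Ctsl (-2.48) and the costimulatory Cd40 (-4.36) were lower as well. The class I genes H2-K1, B2m and H2-D1 showed small differences, with log2 fold changes of 0.03 for H2-K1 (adjusted p = 0.857), 0.02 for B2m (adjusted p = 0.914) and 0.33 for H2-D1 (adjusted p = 0.0784). For the peptide transporter Tap1 the median per tuft-like mTEC was 107.6 CPM against 245.96 in other mTECs, not paired by pool. On the same measure Nlrc5 was at 95.99 against 214.4, Psmb9 at 60.8 against 108.2 and Psmb8 at 42.2 against 62.3 CPM.

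The medullary and cortical programmes were also low. Of 9 mature mTEC markers, which share 4 called genes with the list above, 6 were lower, against 8.42% of all genes. Without 1 pool that count was 4 to 6. Of 9 immature mTEC markers 7 were lower and 1 higher, against 8.42 and 6.33% of all genes. The higher one was the chemokine receptor Ackr4 (3.13), a call lost without any 1 of the WT pools, mTEChi included. Fezf2, which drives tissue antigens in mTECs, had 11.7, 24.3, 34.95, 16.2 and 133.3 CPM against 105.3 to 393.4 (-2.40 ± 0.27, adjusted p = 0.00324). Trp63 had 40.8, 40.8, 86.6, 40.8 and 88.9 CPM against 178.01 to 870 (-3.00 ± 0.48, adjusted p = 0.00952). Aire was not called (-0.53, adjusted p = 0.619), with 20.3 to 56.9 CPM in WT mTEClo tuft-like cells and 169.4 CPM in mTEChi.

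Foxn1, the master factor of thymic epithelium, had 2.90, 4.38, 11.5, 10.2 and 95.7 CPM against 87.5 to 268.3 (-3.50 ± 0.54, adjusted p = 0.0084), while Epcam, used in the sort, was at 399.1 to 460.9 CPM against 353.4 to 450.8 (0.27, adjusted p = 0.11). Of 7 cTEC markers 5 were lower, where 8.42% of all genes were. Without the 8-week pool 1 cTEC marker was lower, without the 4-week WT or Aire-KO pool 2 and without the 5-week WT pool 3, and without any 1 mTEClo pool 4 immature mTEC markers were. Of 20 cell cycle genes 4 were lower and none higher, against 8.42 and 6.33% of all genes, but 1 without the 4-week WT or the Aire-KO pool and 2 without the 5-week WT or the mTEChi pool.

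The largest falls that the naming rule gave were in Fam183b, Kcnk16, Dcx, Smoc2, Gpr139, Cpn1, Col8a1, Col6a4, Insrr, Slitrk4, Kcna2 and Kcnk3, which encode, among others, potassium channels, matrix proteins and the neuronal microtubule protein doublecortin. Smoc2, a matricellular protein, was at 0 to 3.39 CPM in tuft-like cells against 14.5 to 189.1 (-8.34 ± 0.87, adjusted p = 0.0026). Kcna2 was at 0.0414 to 1.30 CPM against 21.7 to 112.5 (-7.48 ± 0.92, adjusted p = 0.00426). Neither overlapped between the classes.

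Markers of other cell types are given beside the shares of all genes, 6.33% higher and 8.42% lower; their part in the results above was not tested. Of thymocyte markers 1 of 9 was higher (Themis, 19.7 to 44.6 CPM) and 1 lower (Rag1, a call lost without any 1 pool), with the list's summed level at 31.6 to 66.98 CPM against 12.1 to 64.1 in other cells, and Cd8b1 was at 0 in every tuft-like pool. Of macrophage and dendritic markers 0 of 10 were higher, with a sum of 11.1 to 179.8 CPM against 29.7 to 341.6 and Itgax at 0. Of B cell markers 1 of 6 was higher, Cd79b, with 105.6, 76.3, 39.4, 37.4 and 85.6 CPM against 2.00 to 26.3 (3.55 ± 0.47, adjusted p = 0.0052), while Ms4a1 was at 0 to 1.05.

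Of mast cell markers 4 were tested and 1, the receptor kinase Kit, was higher at 367.9 to 813.8 CPM against 33.3 to 180.8 (2.67 ± 0.50, adjusted p = 0.0157), with Cpa3 and Ms4a2 at 0; Kit was not called without the Aire-KO pool. Of endothelial markers only Tek was higher, at 195.5 to 356.8 CPM against 1.84 to 11.1, with Cdh5 at 0 to 0.421 CPM. Of muscle markers only Myog was higher, at 9.39 to 95.8 CPM against 0.635 to 2.58.

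Of the other mimetic lineages, 3 of 7 tested neuroendocrine, 4 of 7 microfold, and 1 each of 6 ciliated, 9 enterocyte or hepatocyte, 9 keratinocyte and 7 ionocyte markers were lower and none was higher, against 8.42 and 6.33% of all genes. These counts depended on the pools: lower neuroendocrine markers numbered 0 without the 5-week WT or the Aire-KO pool and 1 without the 4- or 8-week WT pool, and lower microfold markers 1 without the 5-week WT or the Aire-KO pool and 2 without the 8-week pool. The single keratinocyte call was lost in all fits without 1 pool but that without the 5-week WT pool, and the other single calls without 1 to 3 of the pools. Without mTEChi 1 ciliated, 2 keratinocyte and 1 microfold marker were higher. Among 6 fibroblast markers 2 were lower. Of 8 thymic epithelial markers Cldn3 was higher and Foxn1 lower, with none higher when any 1 of the WT mTEClo pools was left out. Dnah5, an axonemal dynein on the ciliated list, had 297.5, 649.2, 508.6, 541.7 and 11.8 CPM against 0.482 to 64.1 and was not called (7.22, adjusted p = 0.0825), while the ciliated factor Foxj1 was at 0.0959 to 17.6.

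Tuft-like cells varied among themselves along the number of bitter receptors. Gnat3 was detected in 85.3% of them with a median of 114.7 CPM (0 to 2769), and Rgs21 in 44.96% with a median of 0 and up to 1800 CPM. In the 3 pools with at least 20 tuft-like cells, Spearman's correlation between Rgs21 and the number of receptors, both after thinning to 200000 reads, was 0.793 at 4 weeks (36 cells), 0.680 at 5 weeks (41 cells) and 0.711 in Aire-KO (23 cells). For Gnat3 it was 0.719, 0.658 and 0.582, for Tas1r1 0.670, 0.622 and 0.664, and for the rule gene Gnb3 0.567, 0.590 and 0.664.

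Other genes ran the opposite way. The correlation was -0.663, -0.584 and -0.592 for Hmx3, -0.503, -0.376 and -0.593 for Gfi1b, -0.486, -0.221 and -0.695 for the peptide transporter Tap1 and -0.457, -0.346 and -0.561 for Alox5ap. The genes named here and above were the extremes among taste, antigen presentation, transcription factor and rule genes of at least 20 CPM. Others were near 0 or changed sign between pools, such as Nfatc2 (0.124, 0.008 and 0.142) and Rgs13 (0.091, -0.062 and -0.194). Gnb3 and Alox5ap are among the 8 genes that chose the cells, so their spread within these cells was shaped by the rule. Each of the 2 WT pools is 1 plate and the Aire-KO pool 2, so these values are a description with no p. The number of receptors after thinning also went with the total reads of the cell before thinning (0.488, 0.348 and 0.210) and with genes detected after thinning (0.693, 0.397 and 0.072), and their part in these relations was not tested.

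**Figure D5:**
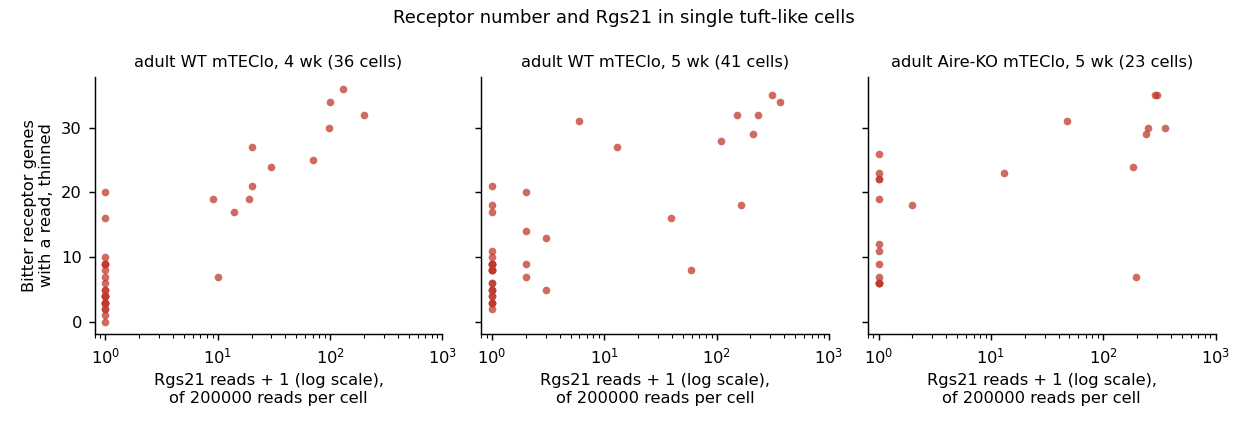
Each point is a tuft-like cell thinned to 200000 reads: Rgs21 reads plus 1 (log scale) against the number of bitter receptor genes with a read, in the 3 pools with at least 20 tuft-like cells. Cells with many Rgs21 reads mostly had over 20 receptors (Spearman's correlation 0.680 to 0.793), with a few exceptions in each pool.

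To ask whether Aire deficiency was accompanied by a change within tuft-like cells, the Aire-KO mTEClo sum was compared with the 3 WT mTEClo sums in a fit of all 5 tuft-like sums. Aire itself had 0.443 CPM in Aire-KO tuft-like cells against 22.1, 20.3 and 56.9 CPM in WT (-6.20 ± 0.99, p = 7.67e-04 before and 0.927 after adjustment, edgeR). Of 23197 genes none was called in either direction (0%) by edgeR, while 2.19% had an unadjusted p below 0.05 and a higher and 2.55% a lower level, and the smallest adjusted p was 0.868. DESeq2 called 24 higher and 95 lower and limma-voom none. With 1 Aire-KO pool a missing call does not show that levels were alike.

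As description, 28 of 39 bitter receptors were higher in Aire-KO than in every WT mTEClo pool and none lower than all, where 26.3% of all genes were above all WT pools and 22% below, and the median log2 difference of the list was 1.16. Tas2r107 had 75.9 CPM in Aire-KO against 29.1, 35.2 and 22.9 in WT (1.35 ± 0.36, adjusted p = 0.972), and Rgs21 had 514.002 against 132.9, 256.7 and 82.95 (1.68 ± 0.54, adjusted p = 0.972). Brush border genes were on the other side, with 16 of 22 below all WT pools, among them Dclk1 at 1770.4 against 2845, 2893 and 3601 CPM (-0.84 ± 0.24, adjusted p = 0.972). Of the immune-type genes 15 of 32 were below all WT pools.

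The tuft-like cells of 4-week male mTEChi were set beside the 3 WT mTEClo pools in the same fit, a comparison added after the data were seen. It shares the WT mTEClo pools with the Aire-KO comparison. By edgeR 25 genes (0.108%) were higher and 28 (0.121%) lower in mTEChi, from 13 cells of 1 pool, and the shares at an unadjusted p below 0.05 were 7.13 and 6.6%. Without the 5-week WT pool 2 and 1 genes were called, without the 4-week pool 0.641 and 0.618% and without the 8-week pool 1.04 and 0.927%.

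The genes called higher rested on few cells. Of the 12 that the naming rule gave, Aqp1, Lilr4b, Krt24, Lix1, Vtcn1, A2m, Pck1, Slc6a5, Itgb3, Ces1d, Hrh1 and Bpifb9b, each had reads in 1 to 8 of the 13 cells, and 1 cell held 50.1 to 100% of them. The water channel Aqp1, at 116.3 CPM in the mTEChi sum and 0 in the WT mTEClo sums, had all its reads in 1 cell.

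The genes called lower were detected widely in mTEClo. Each of the 12 named (Oas2, Tas2r107, Tas2r123, Col4a4, Dnah5, Slfn5, Nefl, Clic6, Fer1l6, Slit2, Tas2r116 and Rtp4) had reads in at least 24 of the 86 mTEClo tuft-like cells, and no cell held more than 19.2% of them. Slit2, a guidance ligand, had 818.9, 1008.4 and 816.7 CPM in WT mTEClo and 75.3 CPM in mTEChi (-3.66 ± 0.28, adjusted p = 0.0353). Oas2, an interferon-induced gene, had 155.4, 125.3 and 156.2 CPM and 0 in mTEChi. Gnat3 (-2.65 ± 0.28) and Dclk1 (-2.57 ± 0.27) were also called, both at adjusted p = 0.0454. The mTEChi arm is a single sum, so these tests take all their spread from the other tuft-like sums, with 2 residual degrees of freedom, and assume that mTEChi varies alike; gate and pool cannot be told apart.

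Over lists, 34 of 39 bitter receptors were lower in mTEChi than in every WT mTEClo pool, where 24.3% of all genes were, and 3 were called, Tas2r107, Tas2r116 and Tas2r123. Of 22 antigen presentation genes 18 were above all WT mTEClo pools, where 34.9% of all genes were, and none was called; MHC class II is the gate between the groups. Of 9 mature mTEC markers all 9 were above.

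The groups with fewer than 5 tuft-like cells are described without a test. In the 3 newborn mTEClo cells, the 3 cells of 6-week mTEChi and the 2 adult cTECs, the summed reads gave 972.7, 842.02 and 267.6 CPM of Gnat3. Il25 was at 37.4, 6.13 and 3.27 CPM and H2-Aa at 94.7, 427.5 and 458.05 CPM in the same order. 1810046K07Rik was at 500.4, 401.6 and 177.3 CPM, above the highest pool of other mTECs in all 3 sums.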

How the data were processed

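RamDA-seq, a full-length total RNA method, was applied to single cells sorted into plates. Per the study's methods and processing notes, reads were trimmed (fastp 0.20.0), aligned to mm10/GRCm38 (STAR 2.7.3a), filtered and deduplicated (SAMtools 1.9, Picard 2.21.1) and counted per gene without strand (HTSeq 0.11.2). The authors deposited raw counts for 1980 cells that passed their filter, 203010 to 1823784 reads per cell (2148 sequencing samples, as 168 cells were run on 2 occasions and share 1 column). The rule selected 131 cells. No 2 columns were identical and no doublet caller was run. A deposited table of normalized scores, made with edgeR by the authors, was not used.

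From the counts, CPM were computed per cell or on sums per pool. Tests used edgeR 4.0.16 (quasi-likelihood, robust, TMM, filterByExpr, Benjamini-Hochberg over all genes) in R 4.3.3, with limma 3.58.1 and DESeq2 1.42.0 as alternatives. The mouse pool was a block in the comparison of classes (residual degrees of freedom 4). The tuft-like sums were compared with 2. Standard errors are the log2 fold change over the square root of F. Shares were compared by an exact permutation test over pools, and intervals are exact (Clopper-Pearson). Within comparisons, the naming rule took up to 12 called genes per direction with the largest fold, at least 20 CPM in the higher class and the same direction in every pool, leaving out predicted genes and pseudogenes, plus members of the lists with their role. Simulated data of the same size gave every pool the same expected profile. In them 50 genes per fold were changed, drawn from genes with a mean count over 20, so the rates may not hold for the real fits. There the test of the classes called 0, 20, 34 and 38% of genes changed 2-, 4-, 8- and 16-fold. It had 0 false calls among 27064 genes. The Aire-KO test called 2, 20, 42 and 56% among 23197 genes with 14 false calls. The members and lists were chosen with earlier results of these data known. Promoters are those of RefSeq, matched by symbol for 19820 genes.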

Additional observations from a re-analysis of the deposited data

Results flagged for a closer look

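Among the 4 plates of Aire-KO mTEChi, plate 7 was flagged as an outlier with 1.23% tuft-like cells, which is its 1 cell. The other plates held 0, so the check had to flag whichever plate held the only cell, and nothing is concluded from it. Shares were examined for such an outlier in 6 groups.

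Cells outside the main comparisons also met the rule. There were 2 tuft-like cells among those sorted as adult cTECs, with reads of 0 and 28 bitter receptors, and 3 among newborn mTEClo, with a median of 24 bitter receptors per cell.

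In 4 genes the difference between tuft-like and other cells went one way in every WT mTEClo pool and the other way in the single 4-week mTEChi pool. This difference between gates was not tested here. The genes screened included those named above for mTEChi against mTEClo, so Ces1d, Fer1l6 and Oas2 had already been picked by their level in this pool. For Ces1d, 1 cell held 80.2% of the reads in its tuft-like cells. On the scale of log2(CPM + 1), the tuft-like minus other difference in that mTEChi pool was 1.4 for Ces1d, -1.78 for Fer1l6, -3.27 for Oas2 and -1.34 for Ptprc.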

How the results depend on the processing

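The mean shares of tuft-like cells in the WT gates moved by less than the SD between pools under every alternative rule. For WT mTEClo that SD was 29.3 on a mean of 38.0%, too wide a measure to tell the rules apart. The single Aire-KO mTEClo pool was set against its binomial interval instead. Without single pools the WT mTEClo mean lay between 29.3 and 54.98%, the latter without the 8-week pool. Counts of called genes are given here as percent of the genes tested. For tuft-like against other mTECs, 6.33% higher and 8.42% lower became 10.398 and 16.5% with DESeq2, 3.96 to 8.45% and 3.75 to 10.02% without single pools, and 3.99 and 4.37% with adult WT pools only, the fit without Aire-KO. Without the replicate block on the mouse pool the shares were 7.85 and 8.63%; the pairing of both classes of a pool comes from the labels. For Aire-KO against WT tuft-like cells, 0 and 0 became 0.103 and 0.41% with DESeq2 and 0.108 and 0.0893% with no filter on low counts.

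For mTEChi against mTEClo tuft-like cells, 0.108% higher became 0.275% with 4 of the 8 genes, 0.207% at 10 CPM, 2.55% with DESeq2, 1.87% without the filter, 1.94% with limma-voom, 0.951% with plates as units and 0.00921 to 1.04% without single pools. The 0.121% lower became 0.254, 0.173, 3.04, 1.38, 0.306 and 1.33% and 0.00461 to 0.927% in the same order. Bitter receptors per cell were 11 at 1 read, 9 at 2, 7 at 5 and 9 after thinning. The causes were not tested. Of 3075 folds of the named genes under alternatives 88.03% kept their call, 11.97% lost it and 0 reversed, and 57.1% of genes were called under every alternative. Of the folds of the 24 mTEChi genes 60 (21.2%) lost their call and 0 reversed. Few tuft-like cells in the 8-week and mTEChi pools (9 and 13) limit the depth behind those values.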
